A study of Mus musculus with 6 samples.

Results

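Dmrtb1, Sycp1, Brdt, Pgk2 and Tuba3a are mouse genes of male germ cells that enter and pass through meiosis, and they were measured here in cells that are labelled as Sertoli cells. The 5 genes were taken by symbol from the authors' deposited table of genes that differed by 4-fold or more between primary Sertoli cells and the MSC-1 line. They have 7 probe sets there, all positive, of 3198 in the table (positive folds cover 4.22% of the 45037 probe sets of the array), and the table names 2291 genes that have a probe set of their own. A probe set is a group of short array probes read together as 1 signal. One of the 7, 1416311_s_at, is shared by Tuba3a and its near copy Tuba3b. Because that table holds only probe sets past 4-fold in this same comparison, the size of each difference below is a description of the genes and no independent evidence that they differ. Probe sets of these genes outside the table have no name in the files and were not analysed here.

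Male germ cells leave mitotic division as spermatogonia, pair and recombine their chromosomes as spermatocytes, and become haploid spermatids. All of them grow in contact with Sertoli cells, the somatic nurse cells of the seminiferous tubule. Several enzymes and structural proteins are replaced in these cells by testis forms, and genes on the X chromosome are silenced during meiosis, so that an autosomal copy such as Pgk2 takes over from its X-linked relative. Synaptonemal complex proteins are known from germ cells and not from Sertoli cells.

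The primary cells came from C57BL/6 x 129 mice that were 19 to 20 days old by the series design, while the growth protocol has 10 to 20 days. The other group is MSC-1, a Sertoli cell line from a testis tumour that arose in a transgenic mouse with SV40 large T antigen driven by the promoter of anti-Müllerian hormone, a Sertoli cell product. Both groups were left untreated except that they aggregated for 48 h at 37 °C in Ham's F10 medium with 10% serum, and each has 3 arrays made from 10 ug of total RNA. Whether replicates came from different cultures or mice is not stated, so p-values measure the spread between samples, which may be technical.

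The deposited signals are on a linear scale and had the same mean of 125.0 on each array once the top and bottom 2% were trimmed. Spearman correlations over 45037 probe sets were 0.936 to 0.959 within the primary group, 0.948 to 0.952 within MSC-1 and 0.786 to 0.799 between them. The ratio of the 3' to the 5' control probe set, a sign of RNA quality, was 0.785 to 0.802 in primary and 0.787 to 0.831 in MSC-1 arrays for Gapdh. For beta-actin it was 1.51 to 1.63 in primary and 1.42 to 1.48 in MSC-1 arrays. The array medians were 27.2 to 29.8 in primary cells and 23.0 to 24.7 in MSC-1, so signals were scaled to a common median before they were compared. The files hold no detection call, so it cannot be said of a low signal whether it lay above background.

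The stretch around the start of each gene was read from RefSeq (GRCm38.p6) as a description of the genes. That they were high together in primary cells follows from how they were chosen, and shared control was not tested. Each window runs from 250 bases before the start to 50 bases after it. The windows of Sycp1 and Brdt hold CACGTG, the E-box read by MAX and its partner MGA, which are known as repressors of germ cell genes in other cells. The windows below are written 5′ to 3′ on the strand of the gene. Capitals mark every match, on either strand, to CACGTG and to the other motifs that follow. These were TCCCGC, a core of E2F sites, then the motif CNCCTCAG, which is linked to STRA8, the factor that starts meiosis, and the promoter element CCAAT.

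Sycp1 (chr3:102936051-102936350, strand -): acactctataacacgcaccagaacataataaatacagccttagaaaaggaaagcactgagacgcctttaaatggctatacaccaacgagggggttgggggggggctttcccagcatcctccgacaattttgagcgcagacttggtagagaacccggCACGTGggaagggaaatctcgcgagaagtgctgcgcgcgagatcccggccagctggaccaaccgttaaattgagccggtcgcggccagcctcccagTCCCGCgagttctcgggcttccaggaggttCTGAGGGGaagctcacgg
Brdt (chr5:107330944-107331243, strand +): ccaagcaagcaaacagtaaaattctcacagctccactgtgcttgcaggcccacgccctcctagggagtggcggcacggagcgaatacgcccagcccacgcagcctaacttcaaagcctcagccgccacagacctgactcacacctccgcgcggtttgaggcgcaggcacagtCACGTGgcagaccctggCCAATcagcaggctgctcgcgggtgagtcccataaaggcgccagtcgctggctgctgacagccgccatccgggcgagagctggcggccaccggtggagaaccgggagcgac
Pgk2 (chr17:40208560-40208859, strand -): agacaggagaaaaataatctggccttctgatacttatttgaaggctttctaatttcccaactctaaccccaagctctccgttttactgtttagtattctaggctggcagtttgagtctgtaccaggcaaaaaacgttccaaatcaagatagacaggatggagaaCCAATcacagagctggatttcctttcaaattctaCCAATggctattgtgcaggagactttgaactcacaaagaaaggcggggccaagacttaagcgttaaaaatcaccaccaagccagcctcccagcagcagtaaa
Tuba3a (chr6:125286032-125286331, strand -): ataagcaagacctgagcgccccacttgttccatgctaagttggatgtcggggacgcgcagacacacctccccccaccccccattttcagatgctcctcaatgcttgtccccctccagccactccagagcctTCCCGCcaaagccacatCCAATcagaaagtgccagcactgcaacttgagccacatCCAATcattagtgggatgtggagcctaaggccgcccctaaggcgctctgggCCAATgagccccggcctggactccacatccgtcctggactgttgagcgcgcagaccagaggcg
Tuba3b (chr6:145615713-145616012, strand +): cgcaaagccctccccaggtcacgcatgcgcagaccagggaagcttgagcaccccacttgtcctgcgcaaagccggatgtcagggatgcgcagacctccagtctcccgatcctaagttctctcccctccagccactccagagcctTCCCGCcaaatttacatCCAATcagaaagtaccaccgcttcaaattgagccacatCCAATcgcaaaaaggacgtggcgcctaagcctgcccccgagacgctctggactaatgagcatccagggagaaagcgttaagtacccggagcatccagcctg

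CACGTG lies 94 to 89 bases before the Sycp1 start and 78 to 73 bases before the Brdt start, and 7.15% of 32851 mouse windows of this length hold it. Sycp1 also has TCCCGC (20.0% of windows) from base 3 to base 8 after the start and CNCCTCAG (7.94% of windows) from base 33 to base 40 on the opposite strand. Pgk2 has none of these motifs and carries CCAAT at 2 places, as 37.4% of windows do at least once. Its window has 4 CpG dinucleotides, against 21 in Sycp1 and 23 in Brdt and a median of 7 over all windows. The Tuba3a window holds TCCCGC once and CCAAT 3 times, and that of Tuba3b holds TCCCGC once and CCAAT 2 times. In a global alignment with gaps the tubulin pair is identical at 211 of 337 columns, or 62.6%. Other pairs of windows were not aligned, so there is no value to set this share against. Dmrtb1 has 2 annotated starts, with 28 and 9 CpGs in their windows, and the only match there is 1 CCAAT in the window with 9. No window of these genes holds TGACGTCA, the full cyclic AMP response element, which 1.79% of windows hold. None of the matches overlap each other. A match shows only that these letters are there.

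All 5 genes had higher signals in primary Sertoli cells than in MSC-1. The MSC-1 signals lay below the median of their arrays for Dmrtb1, Sycp1, Pgk2 and the first Brdt probe set, and above it for the second Brdt probe set and both tubulin probe sets. In each of the 7 probe sets every primary array lay above every MSC-1 array, and the same was true of 24.1% of all probe sets. Each of the 7 also passed the limma test at an adjusted p under 0.05 (Benjamini-Hochberg over 45037 probe sets), as 13.7% of all probe sets did in the direction of primary cells. The choice of the genes from the 4-fold table fixed this outcome, and nothing is read from it. All fold and log2 values below are primary over MSC-1. They were fitted on signals scaled to a common median, with signals below 1 set to 1.

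**Figure D1:**
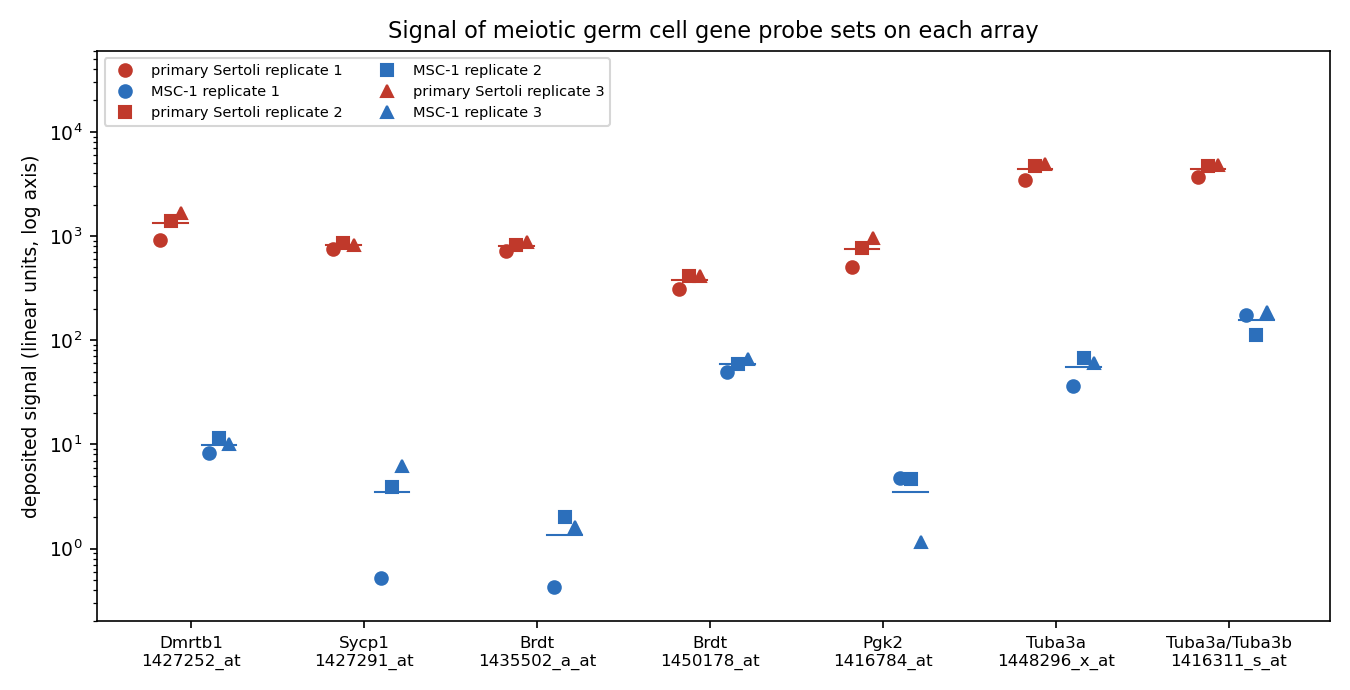
Deposited signal of each probe set (log axis) on the 3 primary Sertoli arrays (red) and the 3 MSC-1 arrays (blue), with symbols for replicates and a line at each group mean. The groups do not overlap in any probe set, and MSC-1 signals run from 0.423 for Brdt to 185 for the probe set shared by Tuba3a and Tuba3b.

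Dmrtb1 encodes a DM-domain transcription factor, also called DMRT6, that coordinates the switch of mouse spermatogonia from mitosis to meiosis. Its probe set 1427252_at gave signals of 911, 1398 and 1668 in primary replicates 1, 2 and 3 and of 8.26, 11.4 and 10.0 in the MSC-1 replicates. The lowest primary array was 79.8 times the highest MSC-1 array, and replicate 1 was well below the other primary arrays. The difference was 6.78 on the log2 scale (SE 0.29, adjusted p = 0.000169, limma, n = 3 per group), or 110-fold, and the authors' deposited table gives 83.9-fold.

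Sycp1 encodes the transverse filament of the synaptonemal complex, which holds paired chromosomes together in meiotic prophase. Probe set 1427291_at read 752, 858 and 826 in the primary replicates. In MSC-1 it read 0.526, 3.88 and 6.15, so that the primary arrays lay close together and the MSC-1 arrays spread over 11.7-fold. The coefficient of variation was 6.65% in primary cells and 80.4% in MSC-1. The log2 difference of 7.95 had an SE of 0.71 (adjusted p = 0.00108, limma, n = 3 per group), more than that of the other 6 probe sets. It was 7.15 without MSC-1 replicate 1 and 8.51 without MSC-1 replicate 3. The authors' deposited table gives 64.9-fold for Sycp1, where the scaled signals gave 246-fold.

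Brdt encodes the testis member of the BET family, whose paired bromodomains read acetylated histones and serve the gene programme of meiosis and the later compaction of sperm chromatin. Its probe set 1435502_a_at read 724, 828 and 877 in primary cells and 0.423, 1.99 and 1.61 in MSC-1. The log2 difference was 8.90 (SE 0.32, adjusted p = 0.000109, limma, n = 3 per group). The second probe set, 1450178_at, read 311, 416 and 409 in primary cells and 49.6, 59.7 and 66.6 in MSC-1. Its log2 difference was 2.43 (SE 0.21, adjusted p = 0.00101), or 5.39-fold. The probe sets of Brdt thus agreed in direction and gave 95% intervals of 8.10 to 9.71 and of 1.90 to 2.96 that do not meet. The authors' deposited table shows the same split, with 88.8-fold and 5.66-fold. In MSC-1 the second probe set lay between percentiles 60.4 and 63.9 of all signals on its array, and the first between percentiles 1.99 and 14.1. Which part of the transcript each probe set reads is not stated in the files, and what the second one detects in MSC-1 was not tested.

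Pgk2 encodes the phosphoglycerate kinase that carries out its step of glycolysis in meiotic and later germ cells, where the X-linked Pgk1 is silent. Probe set 1416784_at read 503, 773 and 952 in the primary replicates, with replicate 1 the lowest. In MSC-1 it read 4.74, 4.65 and 1.14. The log2 difference was 7.68 (SE 0.66, adjusted p = 0.000946, limma, n = 3 per group), or 205-fold, and 6.98 without MSC-1 replicate 3. The authors' deposited table gives 81.3-fold.

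Tuba3a and Tuba3b encode testis alpha tubulins, building blocks of microtubules such as those of the meiotic spindle and the sperm tail. Probe set 1448296_x_at, listed for Tuba3a alone, read 3446, 4712 and 4899.9 in primary cells, at or above percentile 99.4 of each array, and 36.5, 67.3 and 60.7 in MSC-1. Its log2 difference was 6.08 (SE 0.30, adjusted p = 0.000231, limma, n = 3 per group), or 67.8-fold. The shared probe set 1416311_s_at read 3653, 4736 and 4825 in primary cells and 173, 112 and 185 in MSC-1. Its log2 difference was 4.57 (SE 0.28, adjusted p = 0.000405), or 23.8-fold. The authors' deposited table gives 62.3-fold and 41.1-fold for the pair. The ending _x_at marks probes that can also bind other transcripts and _s_at marks probes shared by several genes, so signal from other alpha tubulins cannot be told apart from that of Tuba3a. MSC-1 signals of the shared probe set stood between percentiles 72.2 and 79.3 of their arrays.

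The order of the folds was not stable. By the fitted log2 difference the first Brdt probe set came first, followed by Sycp1 and Pgk2, and the values of Sycp1 and Pgk2 differed by less than their standard errors. Dmrtb1 and the Tuba3a probe set came next. These folds are set by what the few units of signal in MSC-1 are taken to be. With all signals below 16 set to 16, Brdt fell from 479-fold to 46.3-fold, Sycp1 from 246-fold to 46.6-fold and Pgk2 from 205-fold to 41.2-fold, and Dmrtb1 at 73.8-fold then came first. With 32 added to every signal the same 4 genes stood at 23.1-fold, 21.8-fold, 19.3-fold and 28.4-fold, and Tuba3a at 43.8-fold came first. The second Brdt probe set and both tubulin probe sets kept their fold under the floor of 16, since their signals were above it.

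**Figure D2:**
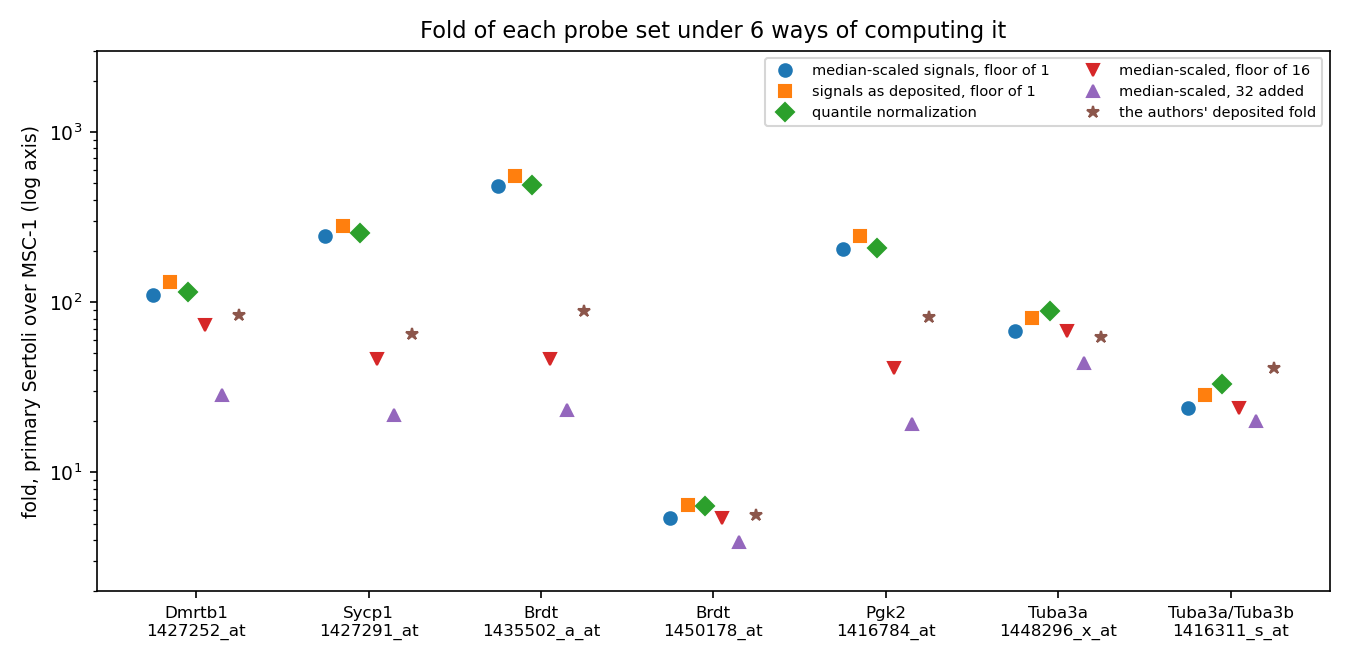
Fold of primary Sertoli over MSC-1 (log axis) for each probe set under 6 ways of computing it, including the authors' deposited fold (star). Probe sets with very low MSC-1 signals spread most, Brdt 1435502_a_at from 23.1-fold to 548-fold, while Brdt 1450178_at stays between 3.93-fold and 6.45-fold.

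Over the whole array, 6150 probe sets passed the test on the primary side and 11127 (24.7%) on that of MSC-1 (limma). With the signals as deposited these counts were 7688 (17.1%) and 8165 (18.1%), and the median log2 difference of all probe sets moved from -0.285 to -0.045. The members' differences are far larger than this shift. Of 7084 probe sets past 4-fold in the fit, the authors' table holds 3071, and its rule for leaving out the others is not stated. All 3198 listed folds have the sign of the signal ratio, positive where primary cells are higher, which settles the direction of that table. Only 21.5% of them lie within 10% of the ratio of the group means, so the authors' folds were made in another way.

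**Figure D3:**
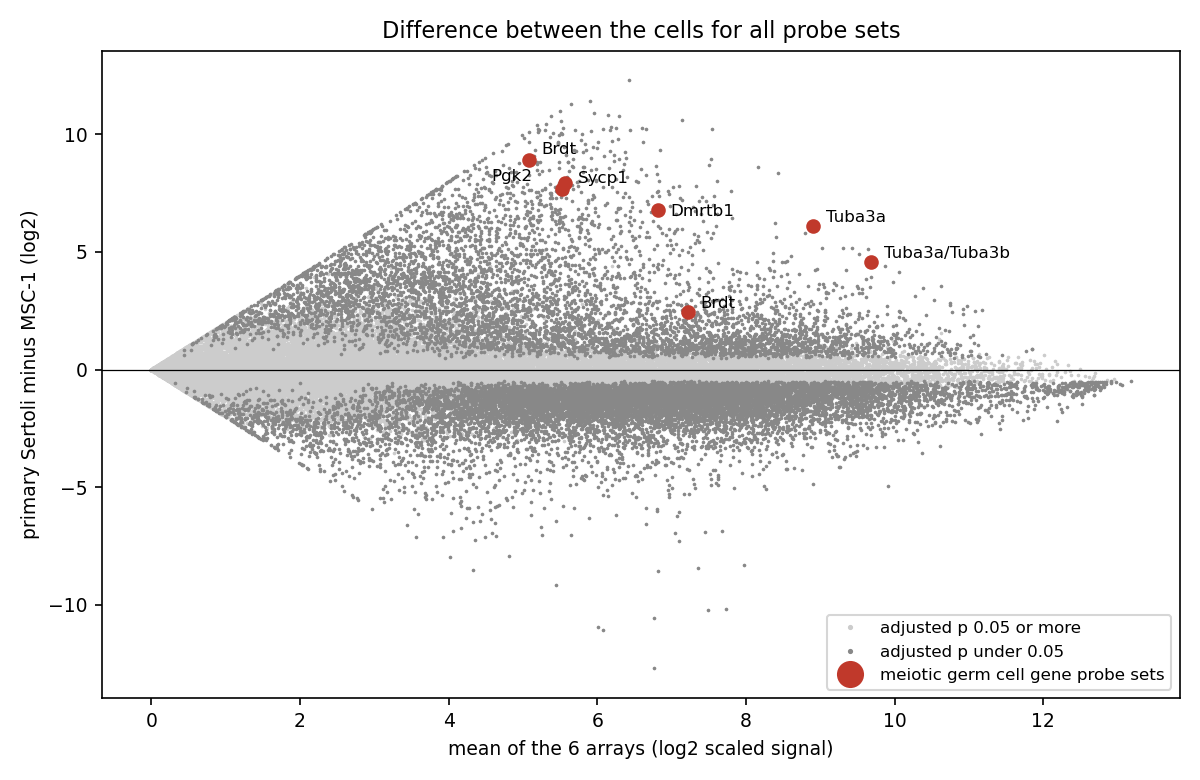
Log2 difference between primary Sertoli and MSC-1 cells against the mean log2 scaled signal of the 6 arrays, for 45037 probe sets, with dark grey for an adjusted p under 0.05. The 7 red probe sets lie between 2.43 and 8.90 on the vertical axis, and both tubulin probe sets lie to the right at high mean signal.

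Other germ cell genes were looked up in 4 lists. Only genes named in the 4-fold table can be found, 40 of 101, so each had to differ by 4-fold. Of these 40, 39 passed the test as higher in primary cells and 1 as higher in MSC-1, with a median log2 difference of 5.26. As for the members, the log2 difference of a list gene with MSC-1 signals near 1 depends on the floor of 1. Of all 2291 genes named there, 62.1% were called higher in primary cells, and the median log2 difference was 2.66 over all and 4.29 over those on the primary side. A listed germ cell gene can thus be set only against a table that itself leans to primary cells, and the lists were drawn up with earlier results of these data known.

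Of 18 spermatogonial genes 4 were listed, all higher in primary cells. Rhox13, an X-linked homeobox gene of germ cells, had a log2 difference of 6.42 (SE 0.23) and Id4, an inhibitor of differentiation known from spermatogonial stem cells, of 4.15 (SE 0.18). Uchl1, a ubiquitin hydrolase of spermatogonia, stood at 4.13 and Stra8, which is switched on by retinoic acid at meiotic entry, at 3.41. Rhox13 read 0.831, 1.14 and 0.376 in MSC-1, so its log2 difference and SE depend on the floor of 1. By the authors' deposited folds it was the lowest of these genes, at 4.39 against 6.41 for Stra8, 21.5 for Id4 and 31.1 for Uchl1.

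Of 34 genes of meiotic prophase 13 were listed, 12 higher in primary cells. Smc1b, the meiotic form of a cohesin subunit, read 587, 614 and 506 in primary cells and 0.701, 1.29 and 2.54 in MSC-1, a log2 difference of 8.39. Syce3 and Tex12, partners of SYCP1 in the central element of the synaptonemal complex, stood at 7.62 and 6.87, and Tex101, a germ cell surface protein gene, at 7.28. The exception was Mnd1, which helps the strand exchange of meiotic recombination. It read 16.5, 21.4 and 13.3 in primary cells and 61.2, 51.3 and 66.3 in MSC-1, a log2 difference of -2.08. In the same comparison 9 of 16 genes of cell proliferation were listed, all 9 higher in MSC-1, with a median of -3.01. Of all 2291 named genes, 866 were called higher in MSC-1. Whether this bears on Mnd1 was not tested.

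Of 23 genes of later spermatocytes 15 were listed, all higher in primary cells with a median log2 difference of 5.69. Spag6, a protein of the axoneme, read 1167, 1469 and 1551 in primary cells and 1.80, 1.33 and 1.16 in MSC-1, a log2 difference of 9.69. Piwil1, which binds the piRNAs of pachytene cells, stood at 8.49, Tdrd1, a Tudor protein of the piRNA pathway, at 7.65, and Cyct, the testis cytochrome c, at 7.04. Tdrd1 read 0.677, 0.540 and 0.557 in MSC-1, all below the floor of 1. The authors' deposited folds were 72.01 for Spag6, 40.76 for Piwil1, 19.19 for Tdrd1 and 61.85 for Cyct. Of 26 spermatid genes 8 were listed, all higher in primary cells with a median of 5.11. Akap3, a scaffold of the sperm tail, stood at 6.13, Crem, a transcription factor of spermatids, at 5.69, Spaca1, of the acrosome, at 5.48, and Odf1, of the outer dense fibres, at 5.28. The protamine and transition protein genes were not among those listed.

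The relatives of the 5 genes were mostly not listed, and for an unlisted gene no level can be given. Of 15 paralogs, 3 were found. Dmrtc2, another DM-domain gene of spermatocytes, read 162, 268 and 269 in primary cells and 0.922, 0.658 and 0.489 in MSC-1, a log2 difference of 7.68. That size depends on the floor of 1, and the authors' deposited fold for Dmrtc2 was 18.3. Tuba4a, a tubulin gene of many tissues, read 707, 217 and 251 in primary cells and 57.7, 44.5 and 46.6 in MSC-1, a log2 difference of 2.52. Its highest primary array was replicate 1, the array in which the Tuba3a probe sets were lowest. Dmrt2 read 32.8, 8.47 and 0.945 in primary cells against 30.7, 33.9 and 45.8 in MSC-1, groups that overlap, and did not pass the test. Pgk1, Tuba1a, Tuba1b and Tuba1c were among those not listed.

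The 5 genes were not spread alike over the primary arrays. Replicate 1 was the lowest primary array in all 7 probe sets, against 38.0% of all probe sets and 67.9% of the 1902 positive probe sets of the 4-fold table. For Pgk2 replicate 3 was 1.89 times replicate 1 and for Dmrtb1 1.83 times. For the Tuba3a probe set the ratio was 1.42 and for the shared one 1.32. It was 1.21 and 1.31 for the probe sets of Brdt and 1.10 for Sycp1. The median of this ratio over the positive probe sets of the table was 1.26. Pgk2 and Dmrtb1 thus varied most between the primary arrays, with coefficients of variation of 30.4% and 28.9%, and Sycp1 varied least.

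Marker lists of other cells moved between the same arrays. The 15 listed genes of later spermatocytes were all lowest in replicate 1, and the median ratio of replicate 3 to replicate 1 was 1.42. The 4 spermatogonial genes were lowest there too. Among genes of meiotic prophase 8 of 13 were, with a median ratio of 1.02. For comparison, 67.9% of the positive probe sets of the 4-fold table were lowest in replicate 1. Of 8 spermatid genes 1 was lowest in replicate 1, and their median signal was 67.3% of the primary mean in replicate 2 against 116% in both others. The 5 listed of 10 peritubular and smooth muscle markers went the other way. Their summed signal was 3379, 1752.1 and 1799.6 in primary replicates 1, 2 and 3 and 116 to 148 in MSC-1. The 8 listed of 20 Sertoli cell markers summed to 9387, 8549 and 8972 in primary cells and to 4169.9 to 4981 in MSC-1, with 7 higher in primary cells and Trf, for transferrin, higher in MSC-1. Their median log2 difference was 4.62, and the sums are carried by Clu in primary cells, at 3683.0 to 5623, and by Trf in MSC-1, at 3503 to 4508. The 3 listed of 11 macrophage markers summed to 578, 708 and 997 in primary cells and to 35.0 to 74.3 in MSC-1. Star was the 1 listed of 8 Leydig cell markers, at 480, 574 and 459 in primary cells. None of 8 endothelial and none of 6 erythroid markers was listed. What part these shifts have in the values of the meiotic genes was not tested, nor was which cells gave the signals. With bulk RNA a change in the mix of cells and a change in RNA per cell cannot be told apart. Wt1, Gata4, Amh and Fshr, which define Sertoli cells, were not listed, so the label of either group could not be checked against them.

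**Figure D4:**
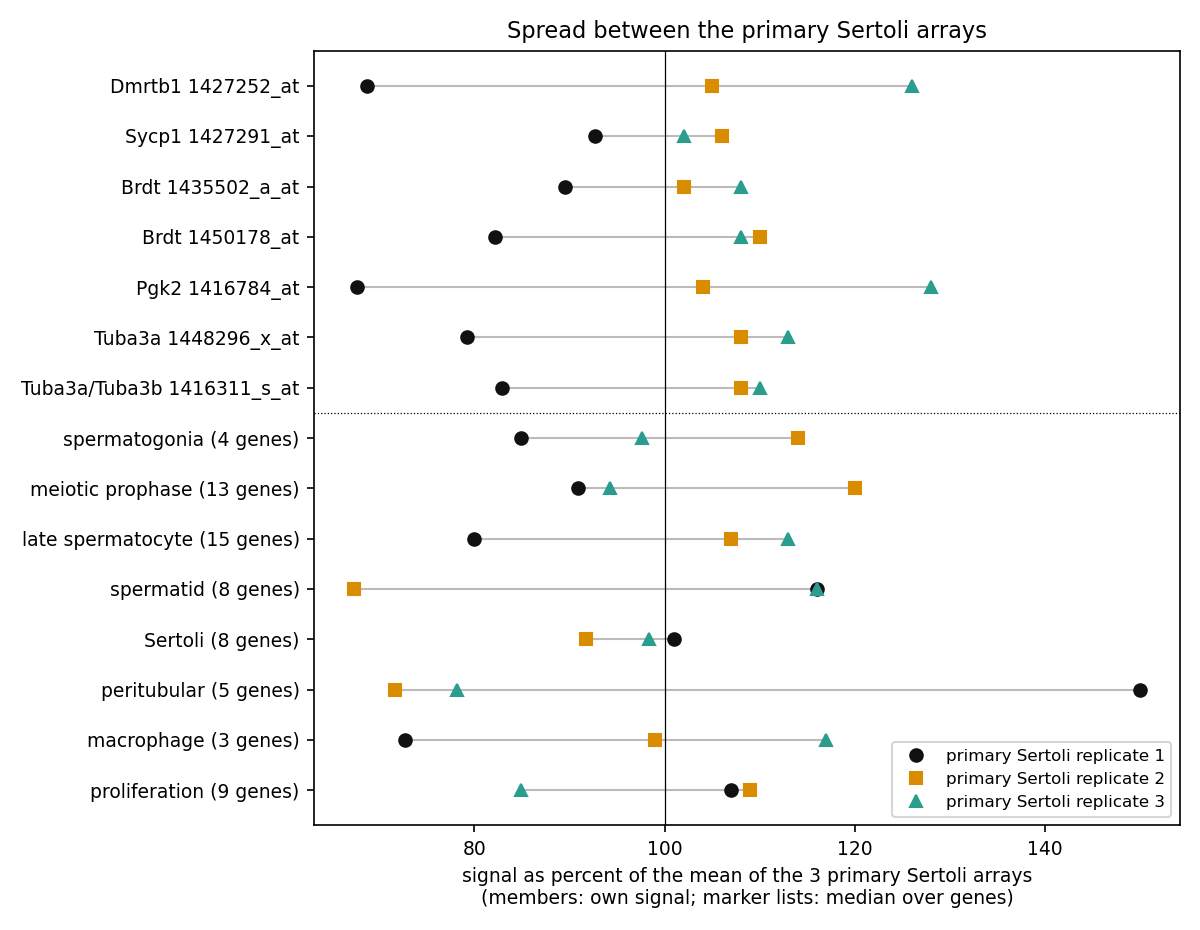
Signal of each primary Sertoli array as percent of the mean of the 3, for the 7 probe sets and, below the dotted line, for marker lists (median over their listed genes). Replicate 1 (black) is lowest for all 7 probe sets, at 67.7% for Pgk2 and 92.7% for Sycp1, and highest for the peritubular list, at 150%.

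The genes most like each member were found by the distance between log2 values centred on their mean over the 6 arrays, among probe sets the table names. Nearest to Dmrtb1 were Ccdc38 (distance 0.25), Nsun7 (0.33) and Ica1l (0.33). Nearest to Pgk2 were Elovl2 (0.53), Fank1 (0.53) and Ttc25 (0.60), and nearest to Sycp1 were Gm128 (0.75), Galnt3 (0.89) and Iqch (1.05). For 1450178_at, the probe set of Brdt with the higher mean log2 value over all arrays, they were Acyp1 (0.22), Zfp672 (0.23) and Lztfl1 (0.24). For the shared tubulin probe set they were Serf1 (0.15), Ypel1 (0.26) and Arl4a (0.32). With 3 arrays against 3 this distance mostly follows the size of the difference, which on the log2 scale was 2.33 to 2.46 for the neighbours of Brdt.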

How the data were processed

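Total RNA of 3 primary Sertoli and 3 MSC-1 samples was hybridised to Affymetrix arrays. The deposited value table holds 1 linear intensity per probe set and array (45101 probe sets, 64 of them controls, left out here), and its trimmed mean of 125.0 on each array is read from the values. The submitters' processing notes name GCOS, Affymetrix's array software, without saying what it did, and how probes were summarised is not stated. The authors also deposited a table of signed fold changes with gene symbols. It is the only source of names, and probe sets with several symbols or none (79 and 50) entered no list. Of 2332 symbols 2217 matched the RefSeq gene table (GRCm38.p6), through older aliases where needed.

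The array medians differed by more than the limit set for using signals unscaled, so each array was scaled to a common median, values below 1 were set to 1, and log2 was taken. Limma 3.58.1 (lmFit, eBayes; R 4.3.3) compared the groups over 45037 probe sets with Benjamini-Hochberg adjustment and a threshold of 0.05, and was tested on simulated data. In the simulation 0 of 67 probe sets with a log2 change of 1 were called, 29 of 67 at 2 and 49 of 66 at 4. Of 44837 unchanged probe sets 3 were called. It held far fewer changed probe sets than the data, so these shares do not carry over directly. The number of arrays limits the precision, and a gene that did not pass may still differ. A list gene took its listed probe set with the highest mean. Named are the 4 largest called differences of each germ cell list with members called the other way, all listed paralogs and the 3 nearest profiles of each member. For the lists of other cells summed signals are given instead, a narrowing made after the values were seen. The planned comparison with odorant receptor probe sets was not possible, since none is named in the files. The members and lists were chosen with earlier results of these data known. Alternatives were another normalization, signals as deposited, an offset, a floor, a filter, an intensity trend, a replicate block and leaving out each array. The authors' folds were set beside them. Other steps used Python 3.11.15 with pandas 2.3.3, numpy 2.4.6, matplotlib 3.10.9 and scipy 1.17.1.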

Additional observations from a re-analysis of the deposited data

How the results depend on the processing

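The 7 probe sets of the 5 genes were set against 14 alternatives each. The last of these was the authors' fold, whose sign was fixed when the genes were taken from that table. The filter, the intensity trend and the replicate block change the test and leave the log2 difference as it was. In these settings the direction could not change. All 98 values, these included, kept their direction, and all 91 with a test stayed at an adjusted p under 0.05, at most 0.0135 (limma). Leaving out each array in turn gave log2 differences of 6.60 to 7.05 for Dmrtb1, 7.15 to 8.51 for Sycp1, 8.59 to 9.16 and 2.32 to 2.59 for the probe sets of Brdt, 6.98 to 8.05 for Pgk2, and 5.84 to 6.27 and 4.34 to 4.73 for those of Tuba3a. Sizes depend on how very low signals are treated, as the floor of 16 and the offset of 32 show, both for genes whose MSC-1 signals may lie at background. The floor of 16 and the use of signals as deposited were chosen after seeing the data. With the replicate number as a block, 7329 probe sets were higher in MSC-1 in place of 11127, and the block ended no call of the 7 probe sets. Whether equal numbers pair the samples is not stated. Deviations of same-numbered arrays correlated at -0.02, -0.03 and 0.00, which cannot show how the samples were prepared. Of the 40 listed germ cell genes, the count called in primary cells stayed within 1.5 times of 39 under every alternative run. With dim probe sets left out 4 spermatid genes, 1 paralog and 1 macrophage marker remained testable and called, since fewer probe sets were tested.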
